A study of Ovis aries with 16 samples.

Results

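PTPRC (ENSOARG00000015718), the gene for the leukocyte common antigen CD45, was followed through the testes of 16 adult Merino male sheep. It is 1 gene of the 25197 listed in each library and 1 of the 11148 that passed the filter for comparison between diets (CPM above 5 in at least 8 libraries). The 8 well-fed sheep had been on a high diet designed to add 10% to body mass in 65 days, and the 8 underfed sheep on a low diet designed for a loss of 10%. Each library came from frozen tissue of the right testis of 1 sheep. The only difference between the groups that the labels give is the diet. PTPRC was selected on its CPM in these libraries, since it differed between the diets and belonged to a group of co-expressed genes related to testis traits over the same sheep. Its diet difference is therefore given as a description, without a test.

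CD45 is a receptor-type protein tyrosine phosphatase of the surface of nucleated blood cells. It removes the inhibitory phosphate from Src family kinases such as LCK, FYN and LYN, and so sets the threshold for signalling through antigen receptors, and it can also act on JAK kinases. In the normal testis leukocytes, mostly macrophages, lie in the interstitium, and the seminiferous tubules behind the Sertoli cell barrier are kept free of them. The extracellular part of CD45 is alternatively spliced. The gene counts used here join all its isoforms, and in whole testis a larger number of PTPRC-expressing cells and more PTPRC mRNA per cell cannot be told apart, nor can resident leukocytes and those in the blood of the tissue.

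The libraries held between 9552149 and 18230076 reads on genes in well-fed and between 7646547 and 14690953 in underfed sheep. The study reported fewer reads on genes, on average, in underfed sheep. In all libraries 3 reads were worth 0.165 to 0.392 CPM. TMM factors ran from 0.74 to 1.01 in well-fed and from 0.996 to 1.13 in underfed sheep, so depth and scaling both went with the diet. The files list genes by identifier. Symbols were taken from 2 supplementary tables of the study, one of genes called different between the diets and one of predicted miRNA targets among such genes, and they name 1760 of the other 11147 genes that passed the filter. Of these, 875 were called higher and 714 lower in underfed sheep, which is 49.7% and 40.6%, so a called gene is the rule among the named ones. Among all genes tested, 10.9% were called higher and 10.6% lower (limma with Benjamini-Hochberg adjustment, adjusted p under 0.1), and with library totals in place of TMM factors the calls were 1747 higher and 564 lower. Library totals move the median log2 difference over the tested genes from 0.01 to 0.17.

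PTPRC was expressed at 10.9 to 33.6 CPM in well-fed sheep, with a median of 16.002, and at 19.3 to 59.4 CPM in underfed sheep, with a median of 33.7. The mean was 17.6 ± 7.06 CPM (SD, n = 8) in well-fed and 36.1 ± 15.2 CPM (SD, n = 8) in underfed sheep. The diets overlapped. In 4 of 8 underfed sheep PTPRC was above every well-fed sheep, and 6 of 8 well-fed sheep were below every underfed sheep. The overlap came from high diet replicates 3 and 7, at 20.2 and 33.6 CPM, and from low diet replicates 1, 6, 7 and 8, at 21.1, 31.3, 23.5 and 19.3 CPM.

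**Figure D1:**
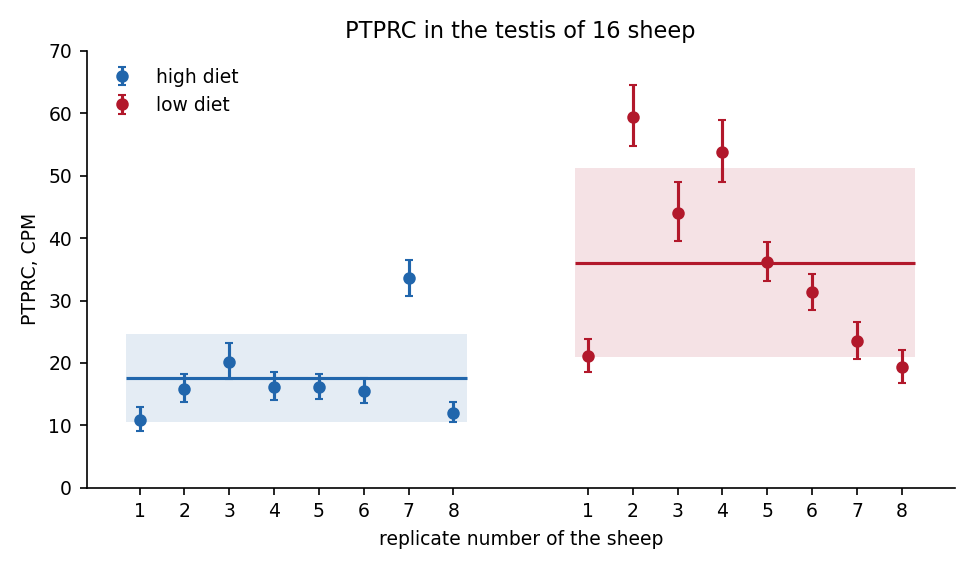
PTPRC in CPM for each sheep by diet and replicate number. Points are single libraries with the exact 95% Poisson interval of their reads, lines are diet means and bands 1 SD of 8 sheep, and high diet replicate 7 at 33.6 CPM stands above the other well-fed sheep.

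Counting error was small beside the spread between sheep. Each library held between 127 and 579 PTPRC reads, which gives a counting error of 4.16% to 8.87% of the value, whereas the coefficient of variation between sheep was 40.2% in well-fed and 42.1% in underfed sheep. For the lowest sheep, high diet replicate 1, the exact 95% Poisson interval ran from 9.10 to 13.0 CPM, and for the highest, low diet replicate 2, from 54.7 to 64.5 CPM. These intervals cover counting error only. Among the genes tested, PTPRC stood between the percentiles 23.6 and 48.8 in well-fed sheep and between 32.1 and 64.5 in underfed sheep, so it was a gene of low to middle abundance in every library.

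On the scale used across genes, log2(CPM divided by TMM factor + 1), the difference was 0.80 (standard error 0.24 from limma, low diet minus high diet), and on library totals it was 0.96. In size it was exceeded by 1566 of the genes tested, 14.0%. Testis weight as a covariate brought the difference to 0.24 (standard error 0.28). Testis weight differs between the diets, so this fit cannot tell diet and weight apart. Leaving out single sheep gave values between 0.69 and 0.93.

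2 further scales set this difference beside the size and the makeup of the organ. When CPM was multiplied by the weight of the testes, with the mean of well-fed sheep set to 100, the index was 100 ± 27.2 (SD, n = 8) in well-fed and 117 ± 35.7 (SD, n = 8) in underfed sheep. The index ran from 61.9 to 153 in well-fed and from 79.0 to 194 in underfed sheep, and only low diet replicate 4 exceeded all well-fed sheep. In mean log2 value the diets differed by 0.22 (standard error 0.20), against 1.01 (standard error 0.28) for log2 CPM itself. The index takes the yield of mRNA per gram as equal in all sheep, which was not measured.

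The second scale divides PTPRC reads by the summed reads of 24 markers of other somatic cells in the same library. These are 7 genes of Sertoli cells, which nurse the germ cells, 2 of Leydig cells, which make testosterone, 9 of peritubular myoid and smooth muscle cells, which wrap tubules and vessels, and 6 of endothelial cells. There were 25.3 ± 6.34 PTPRC reads per 1000 somatic marker reads (SD, n = 8) in well-fed and 23.1 ± 7.27 (SD, n = 8) in underfed sheep. The range was 16.9 to 32.9 in well-fed and 13.8 to 33.0 in underfed sheep, so the diets overlapped almost fully. Low diet minus high diet, the mean log2 value differed by -0.16 (standard error 0.22). Taken over each list alone it was -0.16 for Sertoli, 0.24 for Leydig, -0.29 for myoid and -0.05 for endothelial markers. The markers with a symbol, 24 of 42 listed, are mostly genes that the study had called different between the diets, which limits this denominator.

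**Figure D2:**
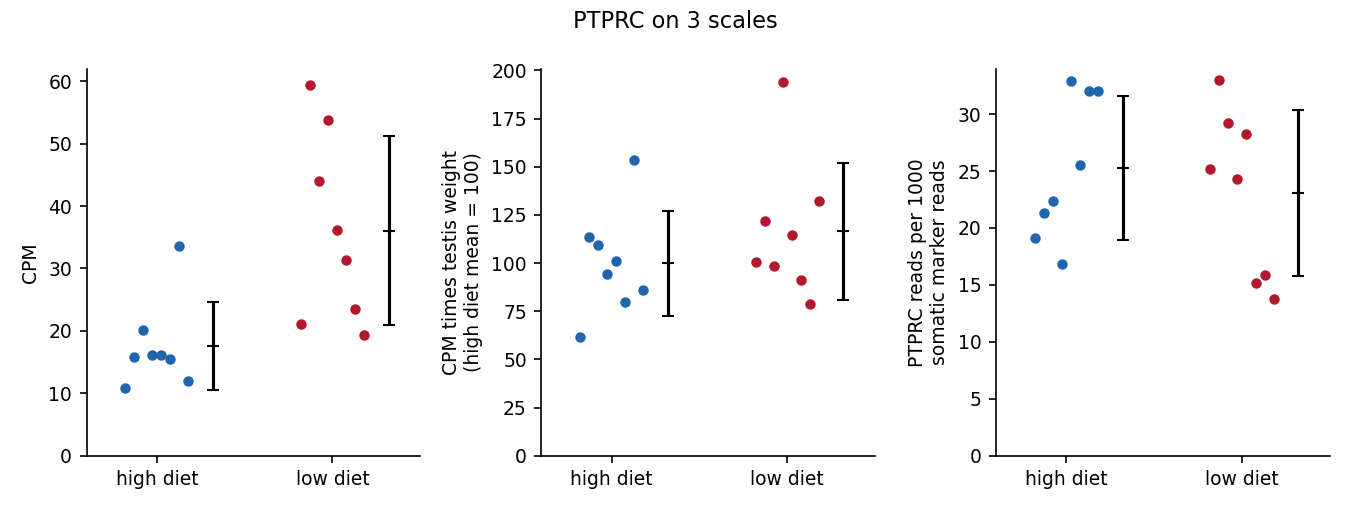
PTPRC by diet as CPM, as CPM times testis weight with the mean of well-fed sheep at 100, and as reads per 1000 somatic marker reads. Points are sheep and bars are mean and SD of 8, and on the scale of somatic marker reads the means are close, at 25.3 and 23.1.

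Of the 24 somatic markers 20 were called higher and 2 lower in underfed sheep (limma, adjusted p under 0.1), against 49.7% and 40.6% of genes with a symbol, and their summed level was 375 to 1048 CPM in well-fed and 837 to 2211 CPM in underfed sheep. All 7 Sertoli cell markers with a symbol, of 11 listed, rose. Among them were CLDN11, the claudin of the Sertoli cell barrier, FSHR, the receptor for follicle-stimulating hormone, and INHA, the inhibin alpha subunit. Of the myoid markers 8 of 9 rose, with a log2 difference of 1.25 for the smooth muscle myosin MYH11, 1.36 for the laminin chain LAMA1 and 1.01 for the tropomyosin TPM1, while CALD1, caldesmon, had 0.58 (limma, adjusted p = 0.11). The endothelial list had 4 markers higher of 6 and 1 lower, CALCRL. Its EPAS1, a hypoxia-responsive transcription factor, NOS3, the endothelial nitric oxide synthase, and MCAM, an adhesion molecule, rose, and RAMP1, a receptor-associated protein, was at the limit (log2 difference 0.87, limma adjusted p = 0.10). The 2 Leydig markers went apart, with PDGFRA up by a log2 difference of 1.00 while STAR, the cholesterol carrier of steroid synthesis, fell by 1.45 on the log2 scale. Of 25 germ cell markers with a symbol, out of 28 listed, 23 fell and 0 rose, where 40.6% of genes with a symbol and 10.6% of all genes were called lower. The difference was below 0 for all 25 in limma, edgeR and DESeq2, so at an unadjusted p the count that rose is 0 as well, and on library totals limma called 17 of them lower. Their summed level was 7711 to 16625 CPM in well-fed and 3681 to 10464 CPM in underfed sheep, and the 4 most abundant were SPATA6, CAPZA3, GK2 and RNF17, of which CAPZA3 did not pass (limma, adjusted p = 0.13). The part of these cell proportions in the PTPRC difference was not tested.

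Whether PTPRC followed the state of the testis among sheep on the same diet was examined with 6 recorded traits, which gave 12 relations of 8 sheep each, on the log2 scale used across genes. The study singled out the gene group of PTPRC over all 16 sheep for its relation to apoptotic germ cells, testis weight, tubule diameter, epithelium volume and scrotal change. Correlations with these traits are therefore given as descriptions, with no p. The group was not singled out for sperm number, and its relation to PTPRC was tested by an exact permutation test over all 40320 pairings, two-sided, with Benjamini-Hochberg adjustment over the 12 relations computed. These 12 include the relations given as descriptions. The adjusted p for sperm number depends on their p as well, so no conclusion is drawn from its lying under 0.05. No correlation over 16 sheep is given, because the diets differ in the traits.

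In the 8 well-fed sheep PTPRC was lower where the number of sperm per testis was higher, with r = -0.77 (exact permutation test, p = 0.0078, adjusted p = 0.047) and rho = -0.86 (exact permutation test, p = 0.011, adjusted p = 0.13). High diet replicate 7, with the most PTPRC, had the fewest sperm and the lightest testes of its diet. Without it r was -0.67, and the adjusted p stayed under 0.05 in only 1 of 8 fits that left out a sheep, the fit without replicate 6. With the 2 sheep of most extreme sperm number removed, r was -0.70 (exact permutation test, p = 0.047, n = 6).

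In the 8 underfed sheep PTPRC was higher where more apoptotic germ cells were counted per tubule, with r = 0.78 and rho = 0.79. Low diet replicate 2 had the most PTPRC, the most apoptotic germ cells and the lightest testes of its diet. Without it r was 0.75, and r stayed between 0.73 and 0.88 with any of the 8 sheep left out. With the 2 sheep of most extreme counts removed, r was 0.68. In well-fed sheep r with the same trait was -0.45 and rho -0.50. Without high diet replicate 7 r was -0.027 there, but with the 2 sheep of most extreme counts removed it was -0.70. Whether the diets differ in this relation was not tested.

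PTPRC was also lower in heavier testes of underfed sheep, with r = -0.74 and rho = -0.74, and lower with a larger volume of seminiferous epithelium, with r = -0.68 and rho = -0.74. Low diet replicate 8 had the least PTPRC of the underfed sheep, the heaviest testes and the largest epithelium volume. After removal of the 2 sheep with the most extreme trait value, r was -0.42 with testis weight and -0.31 with epithelium volume, and without low diet replicate 4 it was -0.83 and -0.80. In well-fed sheep r with testis weight was -0.47, and 0.027 without high diet replicate 7, and r with epithelium volume was -0.35. With the 2 sheep of most extreme trait value removed, these well-fed values were -0.60 with testis weight and -0.55 with epithelium volume. For tubule diameter r was -0.05 in well-fed and -0.26 in underfed sheep, for scrotal change 0.16 and 0.31. In underfed sheep r with sperm number was 0.50 (exact permutation test, p = 0.22, adjusted p = 0.38), and -0.038 without low diet replicate 2.

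**Figure D3:**
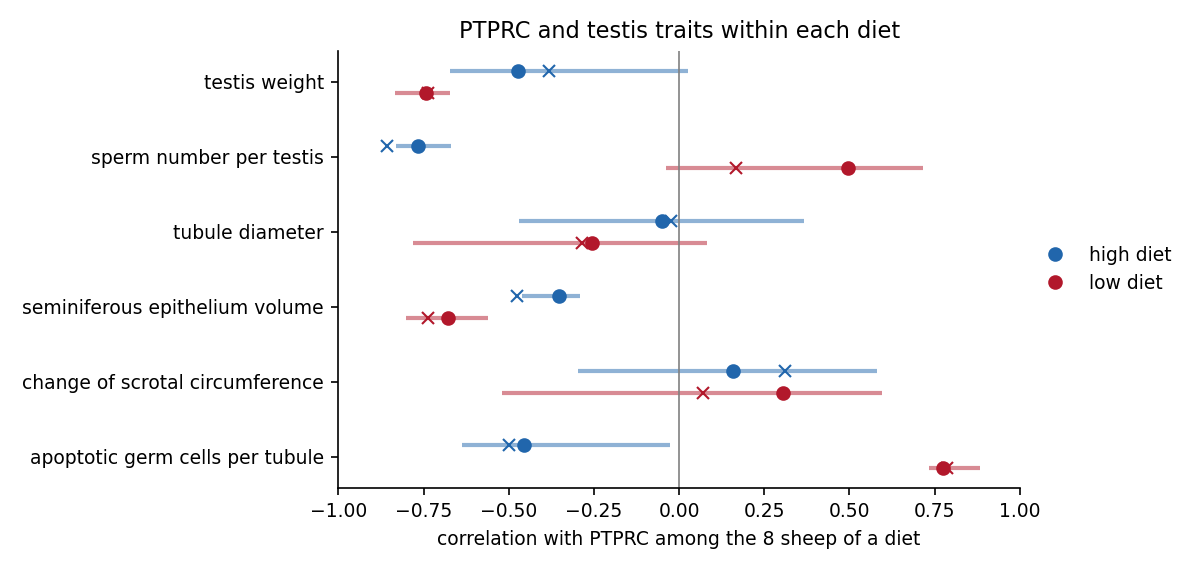
Correlation of PTPRC with 6 testis traits among the 8 sheep of each diet. Dots are Pearson r, crosses Spearman rho and bars the range of r with each sheep left out in turn, and r is farthest from 0 for sperm number in well-fed sheep, at -0.77, and for apoptotic germ cells in underfed sheep, at 0.78.

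The genes that varied with PTPRC were sought within each diet. The study had placed PTPRC in a co-expressed group over the same sheep, and F2R, named among the most like genes here, belongs to that group, so this search is not independent of the choice. For each of the other 11147 genes tested, Pearson r with PTPRC was taken over the 8 well-fed and over the 8 underfed sheep, and the lower of both r is called its likeness. These values are descriptions without p, and genes of a library share its total and its scaling factor. The median r over all genes was 0.026 in well-fed and 0.0094 in underfed sheep, and the median likeness was -0.20. For 207 genes (1.86%) r was above 0.5 in both diets, and for as many it was below -0.5 in both. On library totals 711 genes were above 0.5 in both diets, with Spearman rho 112, and without low diet replicate 8 there were 725.

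Among genes with a symbol EPB41, protein 4.1 of the membrane skeleton, was most like PTPRC, with r = 0.85 in well-fed and 0.93 in underfed sheep. It was expressed at 6.10 to 17.3 CPM in well-fed and 10.3 to 41.9 CPM in underfed sheep, and high diet replicate 7 was again the highest well-fed sheep. EPB41 reads amounted to 61.9% ± 10.8 (SD, n = 8) of PTPRC reads in well-fed and 62.8% ± 10.8 (SD, n = 8) in underfed sheep. Counting alone would give an SD of 6.88 and 5.52 percentage points. PABPC4, a cytoplasmic poly(A)-binding protein, came next with r = 0.80 and 0.84, and then TPP1, a lysosomal peptidase, with r = 0.78 and 0.87. After these came TAB3, an adaptor of the kinase TAK1, the aspartyl protease BACE1, the phospholipase PLCB4, the cAMP-activated exchange factor RAPGEF3, NTRK2, a neurotrophin receptor, F2R, the thrombin receptor, the nuclear RNA-binding protein NONO, FNBP1, a membrane-bending protein, and MPZL1, a surface glycoprotein. Their likeness lay between 0.69 and 0.74. Mean CPM of all 12 was higher in underfed sheep, and the symbols come mostly from a table of genes called different. TPP1 had a mean of 2.81 CPM in well-fed and 10.9 CPM in underfed sheep, so in well-fed sheep it was below the limit of the filter. The 12 held their likeness unevenly. The lowest value with a sheep left out was 0.39 for RAPGEF3 and 0.45 for BACE1, both without high diet replicate 7, and 0.71 for EPB41. With Spearman rho the likeness was 0.55 for EPB41, 0.52 for TAB3, 0.43 for BACE1 and NONO, 0.40 for PLCB4 and RAPGEF3, and 0.76 for PABPC4.

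At the other end stood genes that were low where PTPRC was high in both diets. GDPGP1, a GDP-glucose phosphorylase, had r = -0.70 in well-fed and -0.65 in underfed sheep, and KCNRG, a regulator of potassium channels, -0.57 and -0.74. RABEPK, a Rab9 effector, had -0.67 and -0.56, and the other 5 were NRG4, a ligand of the ErbB family, ECT2L, CEP76, a centrosomal protein, ATG10, an enzyme of autophagy, and RWDD2A. The higher of both r lay between -0.65 and -0.50 for these 8 genes. Without high diet replicate 7 it rose to 0.09 for GDPGP1, 0.05 for KCNRG and -0.06 for ATG10. With Spearman rho it was -0.26 for GDPGP1 and CEP76, -0.19 for KCNRG, -0.17 for ATG10 and -0.29 for RWDD2A. For NRG4, ECT2L and RABEPK it was -0.36, -0.45 and -0.50 with rho.

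The gene most like PTPRC of all tested, singled out after its values were seen, is listed as ENSOARG00000003994, for which the sources used here give no symbol. Its r was 0.94 in well-fed and 0.99 in underfed sheep, and no other tested gene exceeded a likeness of 0.85. Yet its level did not follow PTPRC between diets, with 4.98 to 13.0 CPM in well-fed and 4.17 to 11.2 CPM in underfed sheep and a log2 difference of -0.18 (standard error 0.21, limma adjusted p = 0.55). Its reads were 43.7% ± 5.02 (SD, n = 8) of PTPRC reads in well-fed and 21.0% ± 1.59 (SD, n = 8) in underfed sheep. These shares ran from 38.8% to 53.7% and from 18.8% to 23.8%, and no library scaling can move a ratio within a library. PTPRC was chosen as higher in underfed sheep, so a gene of unchanged level has a lower share of it there. How many other tested genes have shares that do not overlap between the diets was not counted. The separation is therefore not read as particular to this gene. Counting alone would give an SD of 5.47 and 2.78 percentage points, so the spread of this share among sheep on the same diet was no larger than counting error gives. The gene had at least 46 reads in each library. How it lies relative to PTPRC in the genome was not analysed here.

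**Figure D4:**
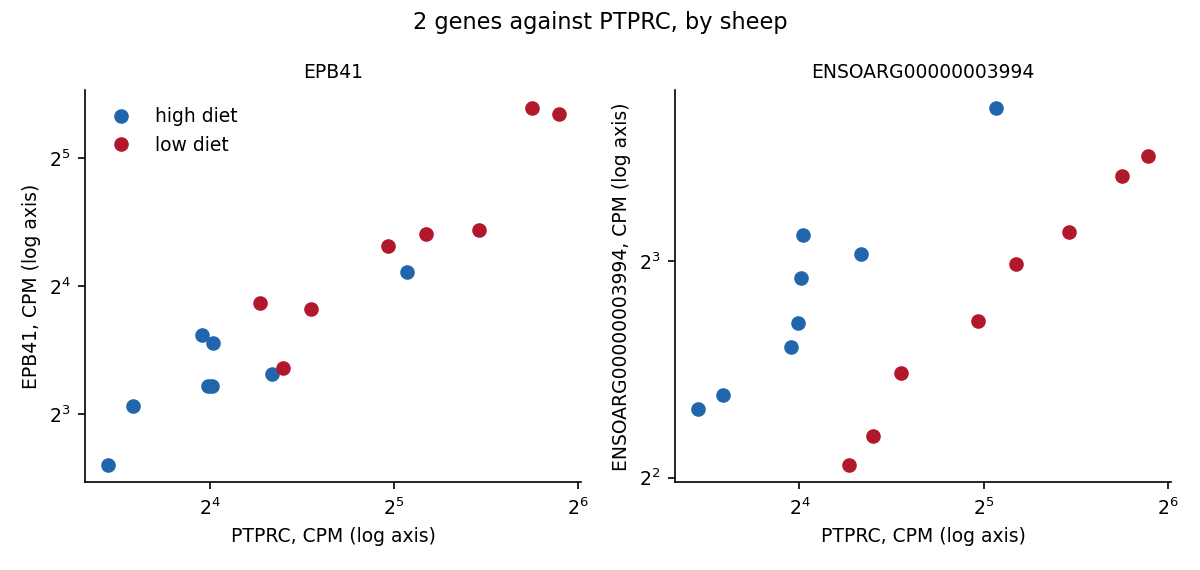
CPM of EPB41 and of ENSOARG00000003994 against CPM of PTPRC for each sheep, both axes logarithmic. EPB41 follows PTPRC along a single band over both diets, whereas ENSOARG00000003994 follows it along 2 bands, at 43.7% of PTPRC reads in well-fed and 21.0% in underfed sheep.

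Since PTPRC marks leukocytes, other genes of these cells were examined. Lists of 78 symbols, for leukocytes at large, T cells, B cells, monocytes and macrophages, and granulocytes and mast cells, had 15 genes with an identifier here, and 0 of the 6 B cell and 0 of the 6 granulocyte and mast cell genes. The T cell receptor chains of CD3 and the macrophage markers CD14, CD68, CD163 and CSF1R were among those without one, so the cell type that carried PTPRC was not determined. The leukocyte genes moved in both directions. Of 15, 7 were called higher and 6 lower in underfed sheep and 2 did not pass. Among all genes tested 10.9% and 10.6% were called, but among genes with a symbol, from which the 15 had to come, 49.7% and 40.6%, so the counts are near that share. On library totals the same test called 7 higher and 2 lower, with all signs as before. Single sheep moved these counts, to 4 higher without high diet replicates 1, 5, 6 or 8 or low diet replicates 4 or 6, and to 0 to 3 lower without any of these or low diet replicates 2, 3 or 8. Their median likeness to PTPRC was -0.16, near the median of all genes, -0.20, and of genes with a symbol, -0.085. With a sheep left out in turn it lay between -0.35 and 0.06.

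Those that went with PTPRC were mostly of the list for leukocytes at large and of T cells. ARHGDIB, a GDP dissociation inhibitor abundant in blood cells, had r = 0.56 and 0.64 (well-fed and underfed) and a mean of 8.50 and 15.5 CPM. TOX, a transcription factor of T cell development, had r = 0.51 and 0.65 and a mean of 5.58 and 17.7 CPM. Both relations rested on high diet replicate 7 in well-fed sheep, without which the likeness was 0.019 for ARHGDIB and -0.027 for TOX, and with Spearman rho it was 0.14 and 0.33. IL18R1, a receptor chain for interleukin 18, had r = 0.48 and 0.76, with 10.2 and 19.6 CPM, and did not pass between diets (limma, adjusted p = 0.17). Its likeness was 0.063 without high diet replicate 1. STK10, a lymphocyte kinase, had r = 0.66 and 0.45, TAGAP, a GTPase-activating protein of activated T cells, 0.47 and 0.33, and RCSD1, an actin-capping partner, 0.26 and 0.49. The likeness fell to 0.24 for STK10 and 0.060 for TAGAP without low diet replicate 1, and that of RCSD1 was 0.095 with Spearman rho. SATB1, a chromatin organiser of thymocytes, and PRKCB, a protein kinase C, rose in underfed sheep but were related to PTPRC mainly in well-fed sheep, with r = 0.67 and 0.62 there and 0.08 and -0.16 in underfed sheep.

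The remaining 7 had a lower mean in underfed sheep, and 6 of them had r below 0 in both diets. CD28, the costimulatory receptor of T cells, was expressed at 37.3 ± 12.9 CPM in well-fed and 24.5 ± 14.0 CPM in underfed sheep (SD, n = 8 each), with r = -0.42 and -0.45. CD69, an early activation antigen, had 10.9 and 6.34 CPM and r = -0.34 and -0.27, and the kinase STK17B 78.3 and 46.1 CPM and r = -0.42 and -0.09. All 3 monocyte and macrophage genes fell, namely FCGR1A, the high-affinity receptor for immunoglobulin G, PLA2G7, the plasma form of platelet-activating factor acetylhydrolase, and EMR3, a myeloid adhesion receptor. Their log2 differences were -0.80, -0.93 and -0.92 (limma, adjusted p = 0.098, 0.056 and 0.080), and r with PTPRC was -0.13 and -0.45, -0.53 and -0.09, and -0.63 and 0.03. Of genes with a symbol 40.6% were called lower, and of all genes tested 10.6%. DESeq2 called all 3 lower and edgeR 2, while limma called 1 on library totals and 0 with the replicate block. For FCGR1A the high diet mean included replicate 5 at 86.4 CPM, with the next sheep at 45.9 CPM. AMICA1, a junctional adhesion receptor of leukocytes, had a log2 difference of -0.94 (limma, adjusted p = 0.10) and r = -0.23 and -0.67.

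**Figure D5:**
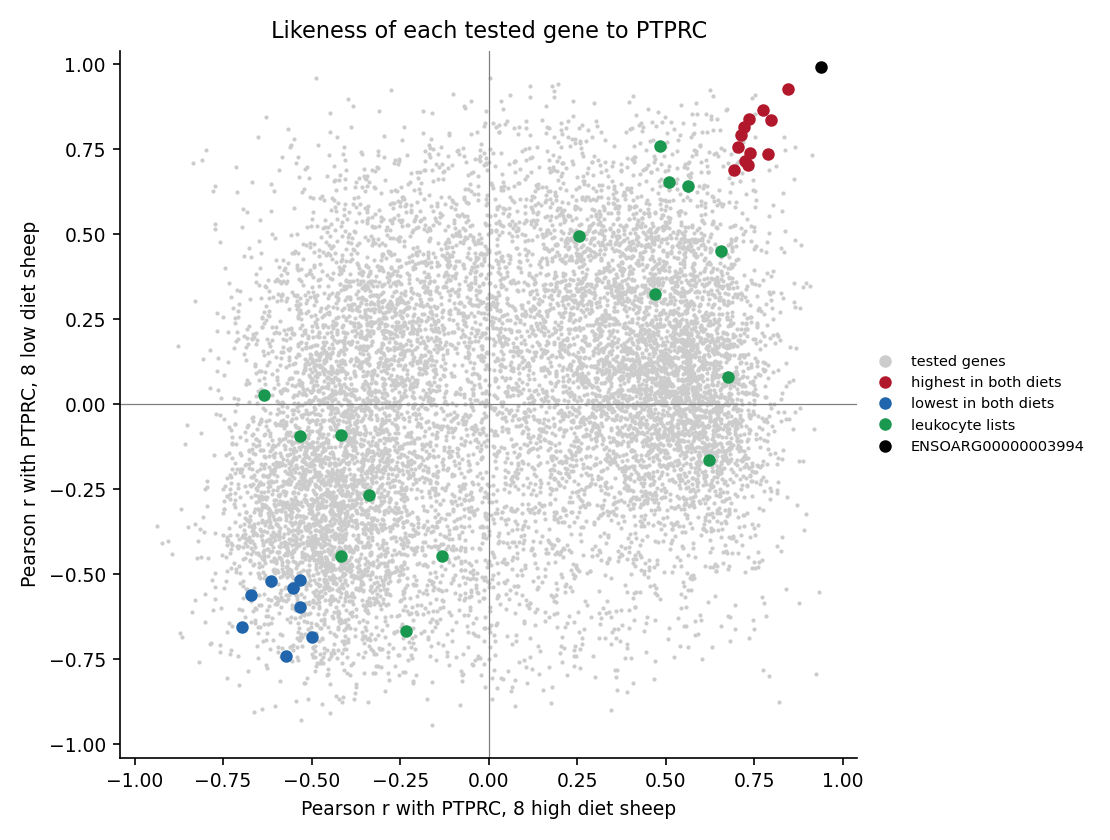
Pearson r with PTPRC over the 8 well-fed sheep (horizontal) against that over the 8 underfed sheep (vertical) for 11147 genes (grey). Red and blue mark the 12 and 8 named genes with the highest and lowest values in both diets, green the 15 leukocyte list genes, which spread over both sides of 0, and black ENSOARG00000003994 at 0.94 and 0.99.

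Partners of CD45 in signalling were represented by 6 of 20 listed genes, of which 4 rose in underfed sheep, against 49.7% of genes with a symbol. The Src family kinases FYN and SRC rose, with log2 differences of 0.86 and 1.20, and their r with PTPRC was 0.24 and 0.77 for FYN and 0.54 and 0.36 for SRC. STAT3, a transcription factor downstream of JAK kinases, rose by a log2 difference of 0.98 with r = 0.83 and 0.46, and the kinase TYK2 rose by 1.03 with r = 0.68 and 0.17. The kinase JAK2 had a log2 difference of -0.73 and did not pass (limma, adjusted p = 0.10). LCK and LYN had no identifier here.

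Among 12 genes of the interferon response and of antigen presentation, out of 16 listed, 9 rose in underfed sheep, against 49.7% of genes with a symbol. Among the most abundant were RNF213, a large ubiquitin ligase, TRANK1 and IFNGR1, a chain of the interferon gamma receptor, and their r with PTPRC in well-fed and underfed sheep was 0.67 and 0.17, 0.69 and 0.30, and -0.43 and 0.18. IFNGR1 had a log2 difference of -0.61 and DTX3L, a ubiquitin ligase, -0.78, and neither passed (limma, adjusted p = 0.10 and 0.18). The 3 with the highest likeness, named after their values were seen, were the transcription factor IRF1 with r = 0.68 and 0.63, the peptide transporter subunit TAP1 with 0.62 and 0.64, and TAPBP, which loads peptides onto class I molecules, with 0.58 and 0.79. The median likeness of the list was 0.21, against -0.20 for all genes and -0.085 for genes with a symbol. It was about the same in other lists, at 0.19 for the somatic markers and 0.21 for the partners of CD45. The value is thus not particular to interferon genes.

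Of 8 genes tied to immune restraint in the testis, out of 11 listed, 6 rose and 2 fell, where 49.7% and 40.6% of genes with a symbol did. The receptor kinases TYRO3, AXL and MERTK, by which Sertoli cells clear apoptotic germ cells and damp inflammation, rose by log2 differences of 1.42, 1.28 and 1.44, and their ligand GAS6 by 1.05. Their r with PTPRC was 0.45 and 0.32 for TYRO3, 0.63 and 0.46 for AXL, 0.59 and 0.37 for MERTK, and 0.41 and 0.04 for GAS6. TGFBR3, a co-receptor for inhibin and transforming growth factor beta, rose by 1.11 and was the most like PTPRC of this list, with r = 0.63 and 0.81. CD200, a ligand that restrains myeloid cells, rose by 0.85 with r = -0.39 and 0.31. The cytokine IL33 and VTCN1, a B7 family inhibitor of T cells, fell by 0.85 and 1.28 on the log2 scale, with r of -0.34 and 0.48 and of -0.42 and -0.17.

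Relatives of PTPRC among the protein tyrosine phosphatases had 8 of 21 listed genes with an identifier, of which 5 rose and 2 fell, near the 49.7% and 40.6% of genes with a symbol. PTPRG and PTPN13 were the most like it, with r = 0.68 and 0.68 and r = 0.60 and 0.76, and log2 differences of 0.80 and 0.75. PTPRD, PTPRM and PTPRE rose by 0.58, 1.10 and 0.98, and PTPRS had 0.98 without passing (limma, adjusted p = 0.10). For PTPRD r was 0.64 and 0.40, and the other 3 had r between 0.56 and 0.68 in well-fed but between 0.05 and 0.09 in underfed sheep. Mean CPM of PTPRE was 3.96 in well-fed sheep, below the limit of the filter, and 9.43 in underfed sheep. PTPRO, a phosphatase of epithelia, and PTPN2, which acts on JAK and STAT proteins, fell by 0.82 and 0.71 on the log2 scale and had r below 0 in both diets. The signs of all listed genes named here were the same on library totals and in edgeR and DESeq2.

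The other cell types were examined in the same way. Median r with PTPRC of the 24 somatic markers was 0.38 in well-fed and 0.37 in underfed sheep, and 19 of 24 were above 0 in both diets. Of genes with a symbol 809 of 1760 were above 0 in both diets, and of all genes tested 32.1%. The median r of genes with a symbol was 0.0072 in well-fed and 0.18 in underfed sheep. In the germ cell list 12 of 25 were below 0 in both diets and 2 above, with a median of -0.38 in well-fed and 0.07 in underfed sheep. Below 0 in both diets were 408 of 1760 genes with a symbol and 29.9% of all genes tested. WT1, PDGFRA, TPM1 and CALD1, picked after their values were seen, had r of at least 0.49 in both diets, whereas CLDN11 had -0.53 in well-fed and 0.06 in underfed sheep. Neither list was chosen independently of the diet difference, and the part of somatic and germ cell proportions in the likeness values was not tested.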

How the data were processed

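Testis RNA of 16 sheep, 1 library each, was sequenced from stranded mRNA libraries. The authors aligned reads to Oar 3.1 with TopHat2 (2.0.10), assigned them to Ensembl genes with HTSeq and deposited CPM, in which a gene is scaled by the total of its library. Each value was a whole multiple of 1 read (100% of values within 0.01 reads), so reads were recovered. Diets and replicate numbers came from the labels. Same-numbered sheep did not deviate together (r from -0.63 to 0.70, above 0.1 in 2 of 8 pairs), and nothing states that they were paired. That sheep are separate animals follows from the study's methods.

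Genes that reached more than 5 CPM in 8 or more libraries were compared by limma (3.58.1, with a trend), taking log2 of TMM-scaled CPM + 1, which understates changes of low genes, with adjusted p under 0.1. TMM factors came from edgeR (4.0.16). The edgeR quasi-likelihood test on recovered reads called 2239 genes and DESeq2 (1.42.0) 3112, both as alternatives. Trait values are those the study recorded for each sheep. Trait correlations used exact permutation tests (scipy 1.17.1 in Python 3.11.15). Models ran in R 4.3.3.

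Named genes are the 12 genes with a symbol of highest and the 8 of lowest correlation in both diets, and members of the gene lists. PTPRC, the lists and the tests were chosen with earlier results of these data known. Intervals on reads are exact Poisson intervals at 95%. Some listed genes are not reported here. The authors' own fold changes and p-values were not used.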

Additional observations from a re-analysis of the deposited data

Results flagged for a closer look

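PTPRC in high diet replicate 7 was 33.6 CPM, with the next well-fed sheep at 20.2 CPM. The gap was 0.590 of the range of the 8 sheep, above Dixon's critical value of 0.526. Without this sheep the log2 difference between diets was 0.93 in place of 0.80. ENSOARG00000003994 was highest in the same sheep, at 13.0 CPM with the next at 8.69 CPM. FCGR1A stood out in another sheep, high diet replicate 5, at 86.4 CPM with the next at 45.9 CPM. These were the 3 values beyond the limit among 74 groups of 8 sheep, and chance alone gives about 1 in 20. The number of such values is thus no larger than chance gives, and none is shown to be an outlier.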

How the results depend on the processing

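Depth did not limit PTPRC, which had 127 reads or more per library. The number of sheep did, since 8 per diet left trait correlations that single sheep could move. The PTPRC difference between diets stayed above 0 in every setting tried, from 0.24 with testis weight as a covariate to 0.96 on library totals. With the replicate block it was the same, 0.80, with a standard error of 0.25. Genes called between diets by limma numbered 2396 of 11148, 1174 with the replicate block, and 0 with testis weight as a covariate, where 544 had an unadjusted p under 0.05 and no other tool was run. The fit with testis weight cannot tell diet and weight apart, since the diets differ in weight. With a sheep left out there were 757 to 3688 calls. They fell by more than 1.5 times without high diet replicates 1, 5, 6 and 8 (1161, 911, 1010 and 974) and low diet replicates 4, 6 and 8 (972, 757 and 1520), and grew without high diet replicate 7 (3631) and low diet replicate 1 (3688). On linear CPM r with sperm number in well-fed sheep was -0.74 (exact permutation test, adjusted p = 0.066) and with apoptotic germ cells in underfed sheep 0.80, and r with tubule diameter in well-fed sheep turned to 0.053. Without the 2 sheep farthest from a trait's median the former were -0.70 and 0.68, and 4 relations changed sign, to 0.38 for tubule diameter and -0.45 for scrotal change in well-fed sheep and to -0.65 for sperm number and -0.22 for scrotal change in underfed sheep. The ranges of r with a sheep left out, in well-fed sheep, were -0.67 to 0.027 for testis weight, -0.83 to -0.67 for sperm number, -0.47 to 0.37 for tubule diameter and -0.30 to 0.58 for scrotal change, -0.46 to -0.29 for epithelium volume and -0.64 to -0.027 for apoptotic germ cells. In underfed sheep they were -0.83 to -0.67 for testis weight, -0.038 to 0.72 for sperm number, -0.78 to 0.081 for tubule diameter, -0.80 to -0.56 for epithelium volume, -0.52 to 0.60 for scrotal change and 0.73 to 0.88 for apoptotic germ cells. The genes with r above 0.5 in both diets numbered 207, 711 on library totals, 112 with Spearman rho and 142 to 725 with a sheep left out. The settings for counts of leukocyte genes called were chosen after seeing the data. CPM times testis weight and PTPRC per somatic marker read kept their signs, at 0.10 to 0.31 and -0.24 to -0.06 with a sheep left out. The causes were not tested, except that fits without a sheep hold fewer samples.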
